A study of Mus musculus with 20 samples.

Results

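Glycolysis and the citric acid cycle were followed through the messenger RNAs of 45 enzyme, carrier and regulator genes in mouse cerebral cortex, out of 21949 genes in the messenger RNA table. The 45 were chosen by name for their place in the linked pathways, with earlier results of these data known. Each matched 1 gene identifier by its symbol. All 45 passed the filter on low values, a mean of at least 0.5 FPKM (a fragment count normalised for transcript length and library size). The study compared PS19 mice, which carry human tau with the P301S mutation as the transgene Tg(Prnp-MAPT*P301S)PS19Vle under the prion protein gene promoter, with wild-type mice. All mice had the strain background (C57BL/6 x C3H)F1. The groups were wild type at 3 months (WT03M), transgenic at 3 months (TG03M), wild type at 10 months (WT10M) and transgenic at 10 months (TG10M), with 5 libraries each and 20 in all. The labels number the replicates without saying whether each is a separate mouse, so the p-values measure only the spread among these libraries, which may be technical. The Prnp promoter is active in many cell types of the brain, and the cortex was sequenced as whole tissue. In such bulk samples, fewer cells of a type and less RNA per cell cannot be told apart.

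Glycolysis splits glucose in the cytosol into pyruvate, with a small yield of ATP and NADH. Lactate dehydrogenase interconverts pyruvate and lactate, while the mitochondrial pyruvate carrier and the pyruvate dehydrogenase complex pass pyruvate on as acetyl-CoA to the citric acid cycle, whose NADH and FADH2 feed respiration. The malate-aspartate shuttle carries cytosolic NADH into the mitochondrion. In the brain, glucose is the main fuel, neurons are rich in respiratory enzymes, and astrocytes are known for glycolysis, glycogen and the release of lactate; the enzymes come in isoenzymes that neurons and astrocytes use to different degrees.

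Depth was estimated from the steps between low FPKM values at 22.6 to 30.1 M fragments in a library (M, mega). Prnp, whose sequences flank the transgene, had 695 to 841 FPKM in the 10 transgenic libraries and 412 to 528 in the 10 wild-type ones. The highest wild-type value, 528, was in WT10M replicate 5. This library and TG10M replicates 1 and 5 stood apart from the other 17 on the first principal component, which held 23.9% of the variance: they scored 26.2 to 30.9 and the others -12.1 to 2.52. The chaperone gene Hsp90aa1 had 13.9 to 16.6 FPKM in these 3 libraries and 16.2 to 20.5 in TG03M replicates 2 to 5, against 532 to 687 in the remaining 13. Markers of excitatory neurons summed to 562 to 1040 FPKM in every library, and those of choroid plexus, which is no part of the cortex, to 6.63 to 1030. Where leaving out the 3 libraries changed a call among the 45 genes, or moved a difference given for one of them by over 1.5 times, the result without them is given too.

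Transcripts of glycolysis were among the most abundant of the cortex. Over the 20 libraries, 24 of the 45 genes had a mean above 100 FPKM, 19 lay between 10 and 100, and 2 lay under 10; 29 ranked among the 1000 most abundant genes of the table. Aldoa, the aldolase that cleaves fructose bisphosphate in most tissues, was the highest at a mean of 1325 FPKM and ranked 14 among all genes. It was followed by Pkm (pyruvate kinase, 639 FPKM), Tpi1 (triosephosphate isomerase, 489), Aldoc (the aldolase enriched in astrocytes, 474) and Mdh1 (cytosolic malate dehydrogenase, 448). Within the cycle, Sdha (the flavoprotein subunit of succinate dehydrogenase) led with 154 FPKM and Suclg2, the GTP-forming beta subunit of succinyl-CoA ligase, was lowest with 15.4. The lowest of all were Hk2, an inducible hexokinase, at 1.18 FPKM, and Pdk4, a pyruvate dehydrogenase kinase known for fasting tissues, at 2.87. As these values are per length, they can be set side by side between genes, with 1 limit. In 12 of the 45 the main transcript has near-identical copies elsewhere, 78 for Gapdh, and their part in the levels and ranks was not tested.

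**Figure D1:**
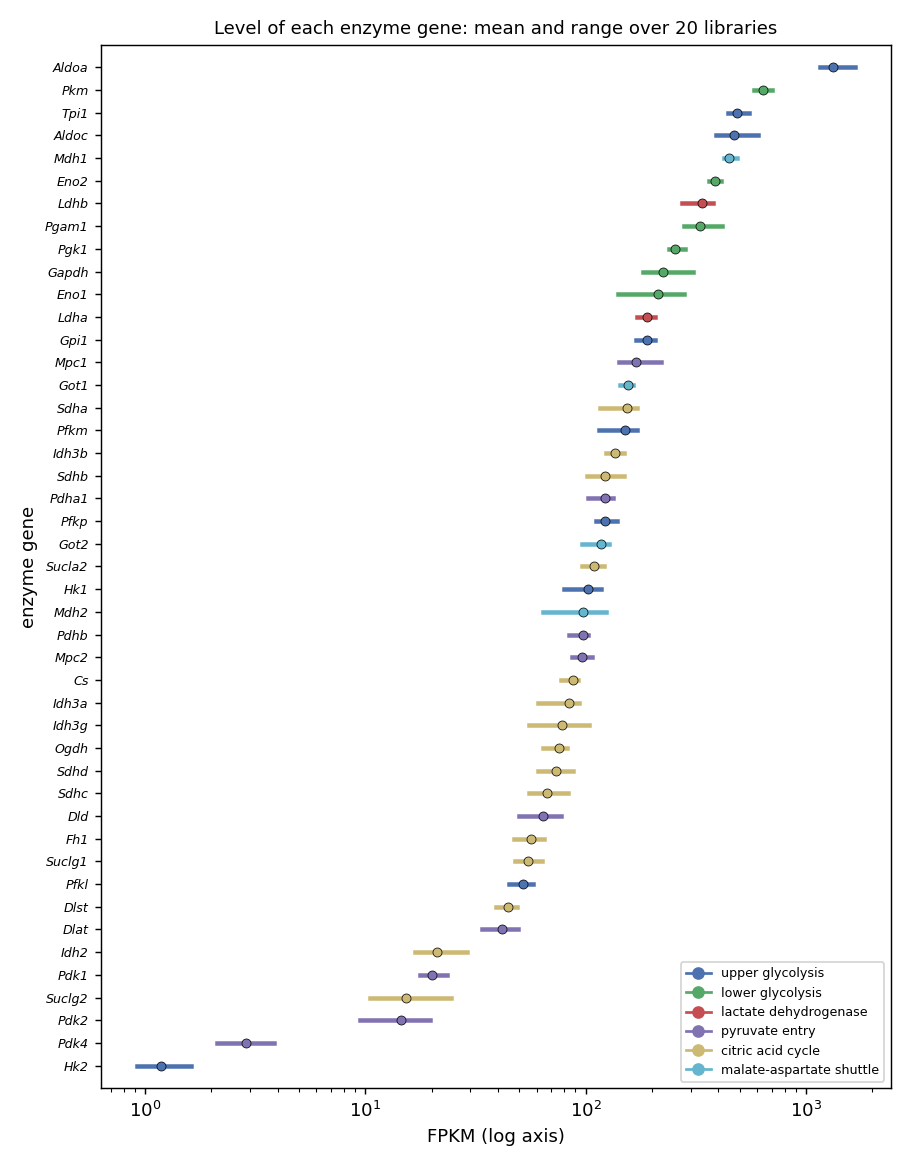
FPKM of each of the 45 enzyme genes on a log axis, as the mean (point) and the lowest to highest library (line) over 20 libraries, coloured by role. Aldoa stands at the top with a mean of 1325 FPKM and Hk2 at the bottom with 1.18, and most lines are short beside the distance between genes.

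The 45 genes together took 1.66 to 1.89% of all FPKM, with a median of 1.8% in both wild-type groups, 1.79% in TG03M and 1.85% in TG10M. Between libraries most of them varied little: the highest library was under 1.5 times the lowest for 31 of the 45, while 46.2% of all genes tested met that limit. The steadiest were Eno2, the neuronal enolase (364 to 411 FPKM, a ratio of 1.13), Got1, the cytosolic aspartate aminotransferase (144 to 165), and Mdh1 (424 to 488). Suclg2 (10.6 to 24.6), Pdk2 (9.43 to 19.7) and Eno1 (141 to 281) varied most. The median coefficient of variation within a group was 4.53% in WT03M and 4.64% in TG03M, against 8.74% and 9.34% for all genes tested. At 10 months it was 9.18% in WT10M and 9.76% in TG10M, against 10.9% and 10.4% for all genes. The spread within the 10-month groups was thus about that of other genes. These groups hold the 3 libraries that stand apart, and the spread without them is not given. The part that the high levels of these genes have in their small spread was not tested.

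The isoenzymes of a step differed widely in level. Hk1, the hexokinase bound to mitochondria in brain, was 59.7 to 114 times as high as Hk2 in the same library. Aldoa exceeded Aldoc 2.41 to 3.26 times, neuronal Eno2 exceeded Eno1 1.39 to 2.66 times, and Ldhb, the heart-type lactate dehydrogenase subunit, exceeded Ldha, the muscle-type subunit, 1.45 to 2.0 times in all 20 libraries. Sucla2, the ATP-forming beta subunit of succinyl-CoA ligase, exceeded Suclg2 4.65 to 10.1 times, and cytosolic Mdh1 exceeded mitochondrial Mdh2 3.46 to 7.60 times. Eno1, Ldha, Ldhb and Suclg2 have near-identical copies elsewhere in GENCODE M21 (3, 4, 1 and 1, as set out below), while Eno2 and Sucla2 have 0. The part of these copies in the ratios was not tested. The order changed for 2 pairs only. Phosphofructokinase Pfkm, the muscle type, was above the platelet type Pfkp in 17 libraries and below it in the 3 that stood apart, and Pdk1 was above Pdk2 in 19 libraries but at 0.894 times it in 1 library of TG03M.

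Pyruvate kinase was mostly of one splice form in every library. Pkm (ENSMUSG00000032294; chromosome 9, 59656368 to 59679375 in GRCm38, plus strand) makes the M1 enzyme of adult brain and muscle or the M2 enzyme of growing cells by using one of a pair of neighbouring exons. The M1 transcript ENSMUST00000163694 took 90.2 to 92.3% of Pkm FPKM and the M2 transcript ENSMUST00000034834 took 7.69 to 9.78%, and the mean M1 share was 91.5% at 3 months in both genotypes, 90.9% in WT10M and 90.97% in TG10M. The groups overlapped. The exons that tell the forms apart are each exon 9 of their transcript and 167 bases long on GRCm38, chr9:59675029-59675195 for M1 and chr9:59675568-59675734 for M2, both on the plus strand; they are shown because the split of Pkm into its forms rests on them. Written 5′ to 3′ from GENCODE M21, with capitals at the 64 positions where the exons differ, they agree at 103 positions (61.7%).
M1 exon: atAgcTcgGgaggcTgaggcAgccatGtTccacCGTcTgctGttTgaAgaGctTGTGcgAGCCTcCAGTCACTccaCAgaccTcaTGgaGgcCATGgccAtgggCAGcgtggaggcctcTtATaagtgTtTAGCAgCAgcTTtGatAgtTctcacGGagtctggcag
M2 exon: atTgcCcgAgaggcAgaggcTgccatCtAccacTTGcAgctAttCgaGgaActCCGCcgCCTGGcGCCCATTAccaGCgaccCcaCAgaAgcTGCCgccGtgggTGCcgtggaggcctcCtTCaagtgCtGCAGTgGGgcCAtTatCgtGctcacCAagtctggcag

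At 3 months 1 of the 45 genes passed the test between genotypes, the fall of Suclg1, which encodes the alpha subunit shared by both forms of succinyl-CoA ligase, the enzyme that makes ATP or GTP in the cycle. Suclg1 (ENSMUSG00000052738; chromosome 6, 73248382 to 73276911 in GRCm38, plus strand) had 60.4, 61.1, 61.9, 59.8 and 61.9 FPKM in the 5 WT03M libraries and 48.98, 47.7, 50.7, 48.6 and 47.7 in the 5 TG03M libraries. Every transgenic library was below every wild-type one. The means were 61.01 ± 0.920 and 48.7 ± 1.24 FPKM (SD, n = 5 each), and the difference of log2(FPKM + 0.5) was -0.32 (SE 0.05, adjusted p = 0.00518) with limma and Benjamini-Hochberg adjustment over all 13722 genes tested. At an adjusted p under 0.05, 41 of all genes tested (0.299%) were called at 3 months.

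The partners of Suclg1 in the enzyme were not called. Sucla2 had 110.3 ± 5.42 FPKM in WT03M and 108 ± 2.78 in TG03M, and Suclg2 had 12.8 ± 2.72 and 15.2 ± 2.87. Leaving out any 1 of the 10 libraries kept the call of Suclg1, with adjusted p from 0.00825 to 0.0265 in limma. Low Hsp90aa1 coincides with the genotype at 3 months in 4 of the 5 transgenic libraries, and with a term for it in the fit the difference was -0.28 with an adjusted p of 0.0765 in limma, which ends the call. TG03M replicate 1, with Hsp90aa1 at 560 FPKM, had a Suclg1 value of 49.0 FPKM, within the 47.7 to 50.7 of the other 4.

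Suclg1 was also lower in 10-month transgenic cortex, though there the call depended on 1 library. The 5 WT10M libraries had 62.4, 57.9, 61.1, 63.4 and 50.7 FPKM and the 5 TG10M libraries 52.1, 51.3, 48.4, 50.3 and 52.7. WT10M replicate 5, the lowest of its group, lay among the transgenic values, and the other 4 lay above all of them. The difference was -0.21 (SE 0.05, adjusted p = 0.0616) in limma with all libraries and -0.29 (SE 0.04, adjusted p = 0.00131) without the 3 that stand apart. Without WT10M replicate 5 alone it was -0.26 with an adjusted p of 0.000728. TG10M replicates 2 to 4, in which Hsp90aa1 was 596 to 657 FPKM, had 48.4 to 51.3 FPKM of Suclg1.

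**Figure D2:**
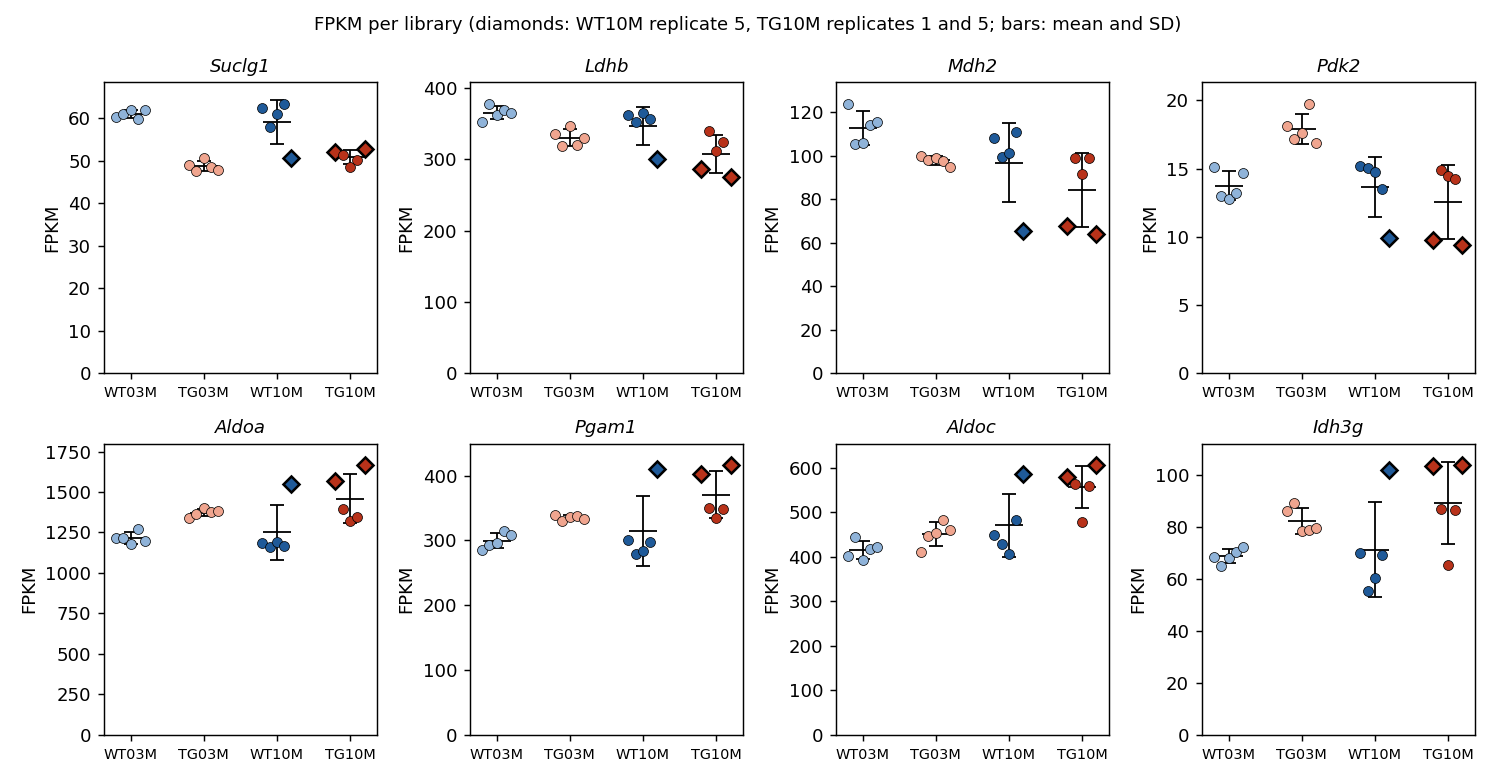
FPKM (y axis, from 0) of 8 enzyme genes in each of the 20 libraries by group (x axis), with the mean and SD (bars); diamonds mark WT10M replicate 5 and TG10M replicates 1 and 5. Suclg1 lies between 57.9 and 63.4 in 9 wild-type libraries and between 47.7 and 52.7 in all 10 transgenic ones, with WT10M replicate 5 at 50.7.

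In 10-month cortex, 0 of the 45 genes were called between genotypes, where 87 genes of the table (0.634%) were. At an unadjusted p under 0.05 in limma the count was 9 of 45, beside 14.1% of all genes. The 45 differences ran from -0.26 to 0.33 on the log2 scale with a median of 0.06 (0.04 without the 3 libraries), beside a median near 0 for all genes, and 32 were above 0 and 13 below. The 95% interval lay within ±0.5 for 42 of the 45 and within ±1 for all 45. By role, the median difference was 0.10 for the 9 genes of upper glycolysis, 0.08 for the 6 of lower glycolysis, -0.08 for the 2 lactate dehydrogenases, 0.05 for the 9 of pyruvate entry, 0.07 for the 15 of the cycle and 0.03 for the 4 of the malate-aspartate shuttle.

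Among the genes of upper glycolysis, the aldolases were the nearest to the threshold at 10 months. Aldoa (ENSMUSG00000030695; chromosome 7, 126795234 to 126800751, minus strand) had 1185, 1162, 1191, 1164 and 1552 FPKM in WT10M and 1568, 1396, 1322, 1346 and 1665 in TG10M. Only WT10M replicate 5 reached the transgenic range; the other 4 wild-type libraries lay below it. The difference was 0.23 (SE 0.07, adjusted p = 0.179) in limma, and 0.20 (SE 0.03, adjusted p = 0.00626) without the 3 libraries. Aldoc (ENSMUSG00000017390; chromosome 11, 78322968 to 78327781, plus strand) had 448, 429, 406, 483 and 587 FPKM in WT10M and 578, 564, 478, 559 and 606 in TG10M, where the groups overlapped. Its difference was 0.25 (SE 0.08, adjusted p = 0.167) in limma and 0.27 (SE 0.07, adjusted p = 0.0468) without the 3 libraries. Of 6 astrocyte markers 2 rose at the same age, Gfap and Aqp4. Another 3 had differences above 0 without a call, and Gja1 was at -0.22 (adjusted p = 0.645 in limma). The 6 summed to 667 to 733 FPKM in WT10M and 789 to 973 in TG10M. Their part in the values of Aldoc was not tested.

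Lower glycolysis and lactate dehydrogenase held values in both directions. Pgam1, the phosphoglycerate mutase of brain, had 301, 279, 284, 298 and 409.6 FPKM in WT10M and 402, 350.0, 335, 348 and 416 in TG10M, with WT10M replicate 5 again inside the transgenic range. Its difference was 0.25 (SE 0.08, adjusted p = 0.183) in limma, and 0.25 (SE 0.04, adjusted p = 0.00351) without the 3 libraries. Eno1, the general enolase, had the largest difference of its role group, at -0.26 (SE 0.15, adjusted p = 0.422), with 163 to 281 FPKM in WT10M and 141 to 265 in TG10M, so the groups overlapped over most of their range. Ldhb (ENSMUSG00000030246; chromosome 6, 142490249 to 142507957, minus strand), whose tetramer is associated with lactate use, had 362, 352, 365, 356 and 300.1 FPKM in WT10M and 286, 339.8, 311, 324 and 275 in TG10M. It was -0.18 (SE 0.06, adjusted p = 0.183) in limma, with WT10M replicate 5 lowest in its group, while Ldha, at 187 ± 4.97 and 189 ± 7.34 FPKM, did not pass the test either.

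At the entry to the cycle, Dlat, the acetyltransferase core of the pyruvate dehydrogenase complex, had 34.01 to 46.2 FPKM in WT10M and 39.6 to 49.5 in TG10M. The difference was 0.23 (SE 0.07, adjusted p = 0.157) in limma. The catalytic subunits Pdha1 (116 ± 9.29 and 124 ± 8.02 FPKM) and Pdhb (93.5 ± 7.20 and 95.5 ± 6.16) had differences of 0.10 and 0.03, and of 0.10 and 0.06 without the 3 libraries. In the cycle, Idh3g, the regulatory gamma subunit of the NAD-dependent isocitrate dehydrogenase, had 70.1, 55.3, 60.2, 69.1 and 102 FPKM in WT10M and 104, 86.95, 65.4, 86.5 and 104 in TG10M. The values overlapped through WT10M replicate 5 and TG10M replicate 3, and the difference was 0.33 (SE 0.13, adjusted p = 0.25). In the shuttle, mitochondrial Mdh2 had 108, 99.2, 101, 111 and 65.2 FPKM in WT10M and 67.7, 98.9, 91.7, 98.7 and 63.97 in TG10M, with the 3 libraries that stand apart at 63.97 to 67.7 and the lowest of the others at 91.7. Its difference was -0.20 (SE 0.13, adjusted p = 0.489) in limma, and -0.12 (SE 0.05, adjusted p = 0.303) without the 3 libraries.

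Without the 3 libraries, 4 of the 45 genes were called at 10 months: Aldoa, Aldoc and Pgam1 rose and Suclg1 fell. In that fit 326 genes of the table, 2.38%, were called. Leaving out WT10M replicate 5 alone gave 9 called genes of the 45 and 1600 in the table; leaving out any other of the 10 libraries gave 0 of the 45. Non-overlap gave another view: with all libraries 1 gene, Got1, was higher in every TG10M library (158, 160.1, 158, 162 and 159 FPKM) than in every WT10M library (157, 154, 157, 157 and 157), where 1.65% of all genes were higher without overlap and 0.729% lower, 2.38% in all. The gap for Got1 was under 1 FPKM, and its difference was 0.03 (SE 0.04, adjusted p = 0.787). Without the 3 libraries, 5 of the 45 were higher without overlap (Aldoa, Gapdh, Pgam1, Dlat and Got1) and 4 lower (Hk1, Ldhb, Suclg1 and Mdh2) in 3 against 4 libraries, beside 8.78% and 9.08% of all genes, 17.9% in all.

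**Figure D3:**
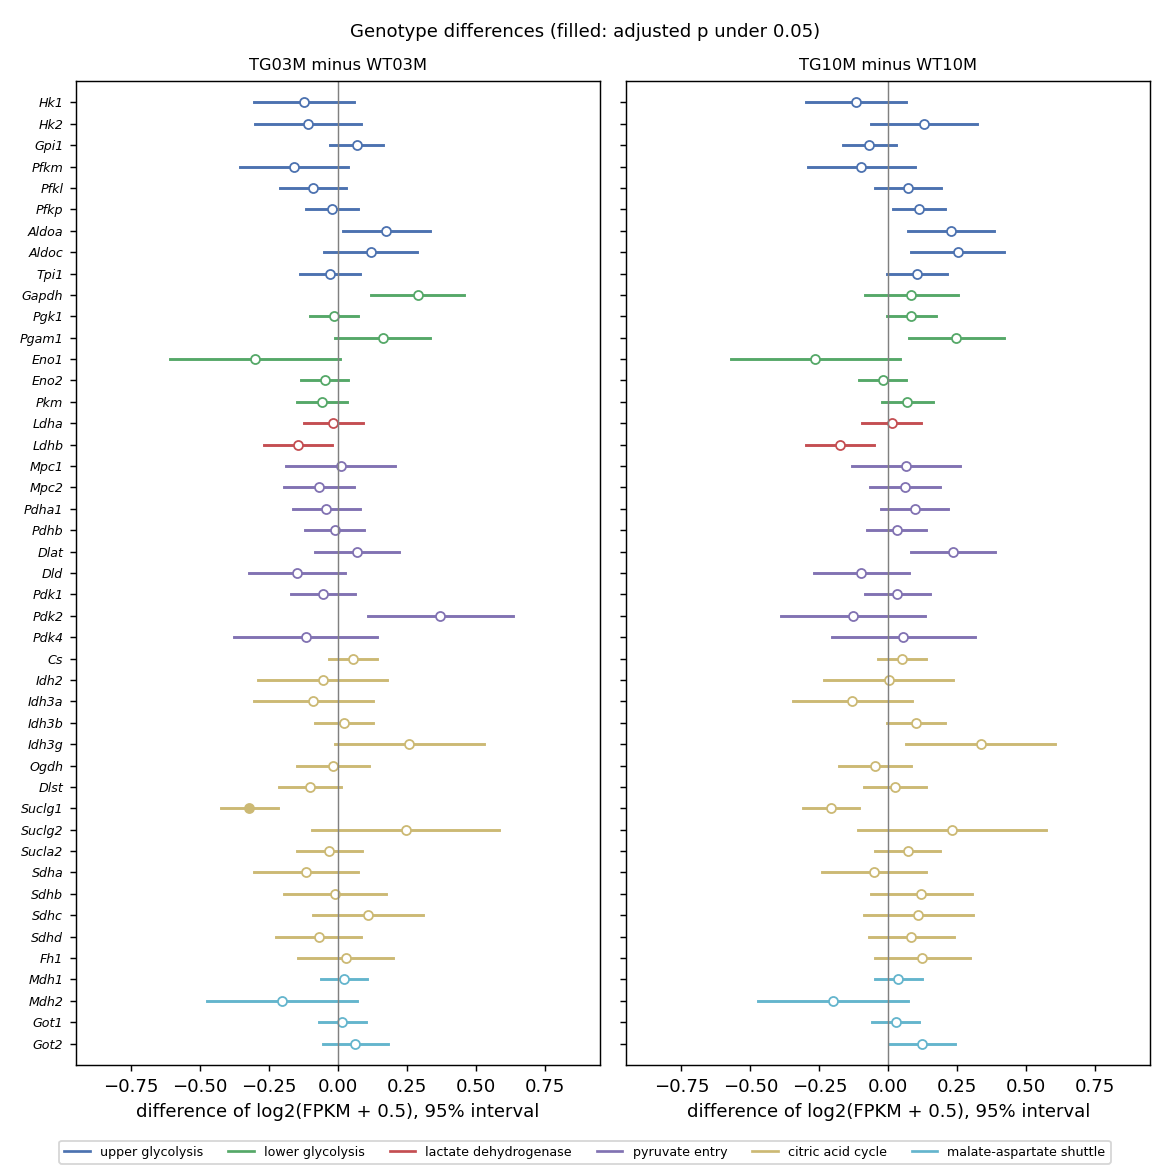
Difference between genotypes in log2(FPKM + 0.5) (x axis) for each of the 45 genes at 3 months (left) and 10 months (right), with its 95% interval, coloured by role; a filled point marks an adjusted p under 0.05 in limma. Suclg1 at 3 months is the filled point, and at 10 months the 45 differences lie between -0.26 and 0.33.

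Besides Suclg1, the 3-month comparison held several genes whose groups did not overlap without a call. Of the 45 genes, 5 were higher in every TG03M library than in every WT03M library (Aldoa, Gapdh, Pgam1, Pdk2 and Idh3g) and 7 were lower (Eno1, Ldhb, Dld, Idh3a, Dlst, Suclg1 and Mdh2). Over all genes 2.01% were higher without overlap and 2.47% lower, 4.48% in all. The median difference of the 45 was -0.02 (near 0 over all genes), with 17 above 0 and 28 below, and the interval lay within ±0.5 for 41. At an unadjusted p under 0.05 in limma there were 5 of the 45, beside 10.6% of all genes.

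Gapdh, glyceraldehyde-3-phosphate dehydrogenase and a common reference gene, had 222, 204, 215, 229 and 209 FPKM in WT03M and 256, 306, 259, 243 and 258 in TG03M. All transgenic libraries were higher, replicate 2 most of all, and the difference was 0.29 (SE 0.08, adjusted p = 0.163) in limma. Pdk2, a kinase that turns off the pyruvate dehydrogenase complex, had 15.1, 12.99, 12.8, 13.2 and 14.7 FPKM in WT03M and 18.1, 17.2, 17.6, 19.7 and 16.9 in TG03M, and these 5 were the highest values of Pdk2 among the 20 libraries. Its difference was 0.37 (SE 0.13, adjusted p = 0.263). Ldhb had 353, 378, 362, 369 and 365 FPKM in WT03M and 335, 319, 347, 320.4 and 330.1 in TG03M, a difference of -0.15 (SE 0.06, adjusted p = 0.377). Aldoa had 1219, 1217, 1176, 1274 and 1196 FPKM in WT03M and 1342, 1364, 1402, 1377 and 1382 in TG03M, a difference of 0.18 (SE 0.07, adjusted p = 0.405). These 4 genes did not pass the test in the fit of all 20 libraries.

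These calls changed with the libraries from which the spread was estimated. When the 3 libraries were left out, the 3-month differences were the same and 7 of the 45 genes were called (Aldoa, Gapdh, Pgam1 and Pdk2 rose; Ldhb, Suclg1 and Mdh2 fell), with 473 genes or 3.45% of the table. When only the 10 libraries of 3 months were fitted, 6 of the 45 were called (Aldoa, Gapdh, Pgam1, Pdk2 and Idh3g rose; Suclg1 fell), with 221 genes of the table. In both of these fits low Hsp90aa1 remains tied to genotype. With a term for it in the fit of all 20 libraries 1 of the 45 was called, Pdk2, at 0.70 with an adjusted p of 0.00679 in limma. The libraries with low Hsp90aa1 include the 3 that stand apart, where Pdk2 deviated from its groups by -0.57, -0.54 and -0.59. The 0.70 therefore rests partly on them. TG03M replicate 1, with Hsp90aa1 at 560 FPKM, had 18.1 FPKM of Pdk2, beside 16.9 to 19.7 in its group. The count of all genes called with this term is given at the end.

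Taking both ages in 1 comparison, added after the values were seen, 3 of the 45 genes were called, and 370 genes or 2.7% of the table. At an unadjusted p under 0.05 in limma there were 12 of the 45, beside 20.2% of all genes. Aldoa rose by 0.20 (SE 0.05, adjusted p = 0.0464), while Ldhb, at -0.16 (SE 0.04, adjusted p = 0.0434), and Suclg1, at -0.26 (SE 0.03, adjusted p = 0.000572), fell (limma, Benjamini-Hochberg). Without the 3 libraries 11 were called (9.06% of the table): Aldoa, Aldoc, Gapdh, Pgam1, Dlat, Pdk2 and Idh3g rose and Hk1, Ldhb, Suclg1 and Mdh2 fell. Leaving out 1 library at a time gave 1 to 12 called genes of the 45: Suclg1 in all 20 fits, but Aldoa and Ldhb in only 3 each, and without WT10M replicate 5 the 12. With a term for low Hsp90aa1, 3 of the 45 were called: Suclg1 fell and Gapdh and Pdk2 rose. The share of all genes called over both ages with this term, or with 1 library left out, is not given here. Of the other 17 libraries, 8 transgenic and 9 wild type, 5 genes of the 45 did not overlap between genotypes: Aldoa, Gapdh and Pgam1 were higher, and Ldhb and Suclg1 lower, in every transgenic library, where 0.721% of all genes were higher without overlap and 0.947% lower, 1.67% in all. In TG10M replicates 1 and 5, which are left out of these 17, Gapdh had 187 and 182 FPKM, below every wild-type library (188 to 229). The mitochondrial transcript mt-Co1 also separated the 17 libraries, with 6000 to 6920 FPKM in the 9 wild-type and 8510 to 10600 in the 8 transgenic ones. Whether a feature of the libraries that differs with genotype has a part in the enzyme values was not tested.

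The stretches before the start sites of these genes are shown for the 5 genes whose values separated the genotypes in the 17 other libraries. Each is the RefSeq promoter window (GRCm38.p6) of 250 bases before the start, cut for Suclg1 to the 127 bases outside GENCODE M21 exons, and written 5′ to 3′ on the gene's strand. Capitals mark ACGTG or its reverse complement CACGT, a common form of the core that hypoxia-inducible factors are known to bind. The windows are chr6:73248255-73248381 (plus) for Suclg1, chr6:142507958-142508207 (minus) for Ldhb, chr7:126799255-126799504 (minus) for Aldoa, at the transcript ENSMUST00000032934 that held 77.9 to 83.7% of Aldoa FPKM, chr6:125165774-125166023 (minus) for Gapdh, and chr19:41911621-41911870 (plus) for Pgam1.
Suclg1: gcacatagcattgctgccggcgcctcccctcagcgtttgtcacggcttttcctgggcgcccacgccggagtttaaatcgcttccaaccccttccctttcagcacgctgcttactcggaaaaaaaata
Ldhb: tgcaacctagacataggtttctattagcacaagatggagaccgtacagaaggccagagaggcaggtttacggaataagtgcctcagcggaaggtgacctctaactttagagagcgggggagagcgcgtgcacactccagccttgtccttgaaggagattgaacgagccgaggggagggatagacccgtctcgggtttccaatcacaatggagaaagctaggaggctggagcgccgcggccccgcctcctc
Aldoa: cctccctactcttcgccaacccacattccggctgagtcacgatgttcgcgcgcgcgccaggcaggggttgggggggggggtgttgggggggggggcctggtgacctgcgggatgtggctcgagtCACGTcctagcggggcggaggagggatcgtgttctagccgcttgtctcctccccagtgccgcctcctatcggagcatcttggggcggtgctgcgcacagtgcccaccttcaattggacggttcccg
Gapdh: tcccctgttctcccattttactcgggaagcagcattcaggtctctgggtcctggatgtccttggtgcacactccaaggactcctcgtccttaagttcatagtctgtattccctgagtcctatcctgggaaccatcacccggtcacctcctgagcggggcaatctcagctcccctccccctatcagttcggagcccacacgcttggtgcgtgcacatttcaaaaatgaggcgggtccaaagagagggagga
Pgam1: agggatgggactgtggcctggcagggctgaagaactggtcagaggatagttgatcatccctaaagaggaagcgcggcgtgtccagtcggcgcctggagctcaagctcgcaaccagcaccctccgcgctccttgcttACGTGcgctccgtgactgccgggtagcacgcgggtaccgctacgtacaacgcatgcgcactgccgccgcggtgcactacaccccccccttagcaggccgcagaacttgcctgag

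Of the genes higher in the transgenic libraries among those 17, Aldoa and Pgam1 each hold 1 match in the window shown and Gapdh holds 0. The windows of Suclg1 and Ldhb, which were lower there, also hold 0. Only ACGTG and CACGT were counted, so a 0 does not mean that other forms of the core are absent. Another RefSeq window of Aldoa, at chr7:126800448-126800697 (minus), also holds 0. Of the 45 genes, 43 had a RefSeq entry, with 62 windows of 250 bases in all, and 20 windows of 13 genes held ACGTG on either strand (32.3%). Over all 32841 windows of the table the share was 16.6%. Windows of a gene can overlap and hold the same match, as those of Aldoa at chr7:126799255-126799504 and chr7:126799179-126799428 do. The windows of all genes were not matched to the 62 in base composition, so the shares are a description. The genes with a match were Hk2, Pfkm, Aldoa, Pgk1, Pgam1, Pkm, Ldha, Pdhb, Pdk2, Idh3g, Ogdh, Sdha and Mdh1. The longer CACGTG, which contains ACGTG, was in 9.7% of the 62 and in 6.0% of all windows, and TATAAA, searched on both strands, in 3.2% and 12.4%. A match says only that these letters are in the window.

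With age 0 of the 45 genes were called in either genotype. From WT03M to WT10M 0 of the 45 were called (9 genes or 0.0656% of the table), and 3 had an unadjusted p under 0.05 in limma, beside 6.72% of all genes. The count was also 0 of the 45 without the 3 libraries, with 0.0802% of the table. The median difference was -0.04, with 32 of the 45 below 0, and the interval lay within ±0.5 for 43. The smallest p belonged to Dlst, the core of the 2-oxoglutarate dehydrogenase complex (46.5 to 48.9 and 39.6 to 47.8 FPKM; -0.14 (SE 0.05, adjusted p = 0.561)), and Dld, the dehydrogenase that both complexes share (69.2 to 77.2 and 50.4 to 70.2 FPKM; -0.20 (SE 0.08, adjusted p = 0.616)). They were followed by Pdha1 at -0.13 (SE 0.06, adjusted p = 0.666) and Aldoc at 0.17 (SE 0.08, adjusted p = 0.747). When the 3 libraries were left out, the difference of Dld was -0.13 and that of Aldoc 0.09. The wild-type groups overlapped in all 45 genes, and did not overlap in 1.65% of all genes.

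From TG03M to TG10M 0 of the 45 were called either, with 116 genes or 0.845% of the table, and 9 had an unadjusted p under 0.05 in limma, beside 16.1% of all genes. Without the 3 libraries it was 0 of the 45 as well, with 0.532% of the table. Pdk2 came nearest. It had 18.1, 17.2, 17.6, 19.7 and 16.9 FPKM in TG03M and 9.76, 14.9, 14.4, 14.3 and 9.43 in TG10M, where replicates 1 and 5, of the 3 libraries, were lowest and all 5 were below every TG03M library. The difference was -0.52 (SE 0.13, adjusted p = 0.0536), and -0.29 (SE 0.06, adjusted p = 0.0526) without the 3 libraries. Aldoc had 412, 448, 454, 484 and 459 FPKM in TG03M and 578, 564, 478, 559 and 606 in TG10M, a difference of 0.30 (SE 0.08, adjusted p = 0.0801). Gapdh had 187, 242, 244, 230.3 and 182 FPKM in TG10M, and its difference was -0.29 (SE 0.08, adjusted p = 0.0936); without the 3 libraries this was -0.14. Pfkp, with 112 to 126 and 124 to 139 FPKM, had a difference of 0.16 (SE 0.04, adjusted p = 0.0936).

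Between the transgenic ages 3 genes of the 45 did not overlap, 1 higher and 2 lower in TG10M, beside 1.84% and 1.57% of all genes, 3.42% in all. Hk2 was higher in TG10M (1.23, 1.21, 1.32, 1.62 and 1.41 FPKM) than in TG03M (0.949, 0.942, 1.09, 1.20 and 0.922), and Gpi1, glucose-6-phosphate isomerase (192 to 199 and 173 to 192 FPKM), and Pdk2 were lower. The gaps of Hk2 and Gpi1 were narrow. For Hk2 the highest TG03M value was 1.196 FPKM and the lowest TG10M value 1.210. For Gpi1 the lowest TG03M value was 192.19 FPKM and the highest TG10M value 191.67. None of the 3 genes was called. With a term for low Hsp90aa1 the count of called genes rose to 16 of the 45 and 2319 of the table. The libraries with low Hsp90aa1 were 4 of TG03M, 2 of TG10M and 1 of WT10M, the last 3 being those that stand apart.

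**Figure D4:**
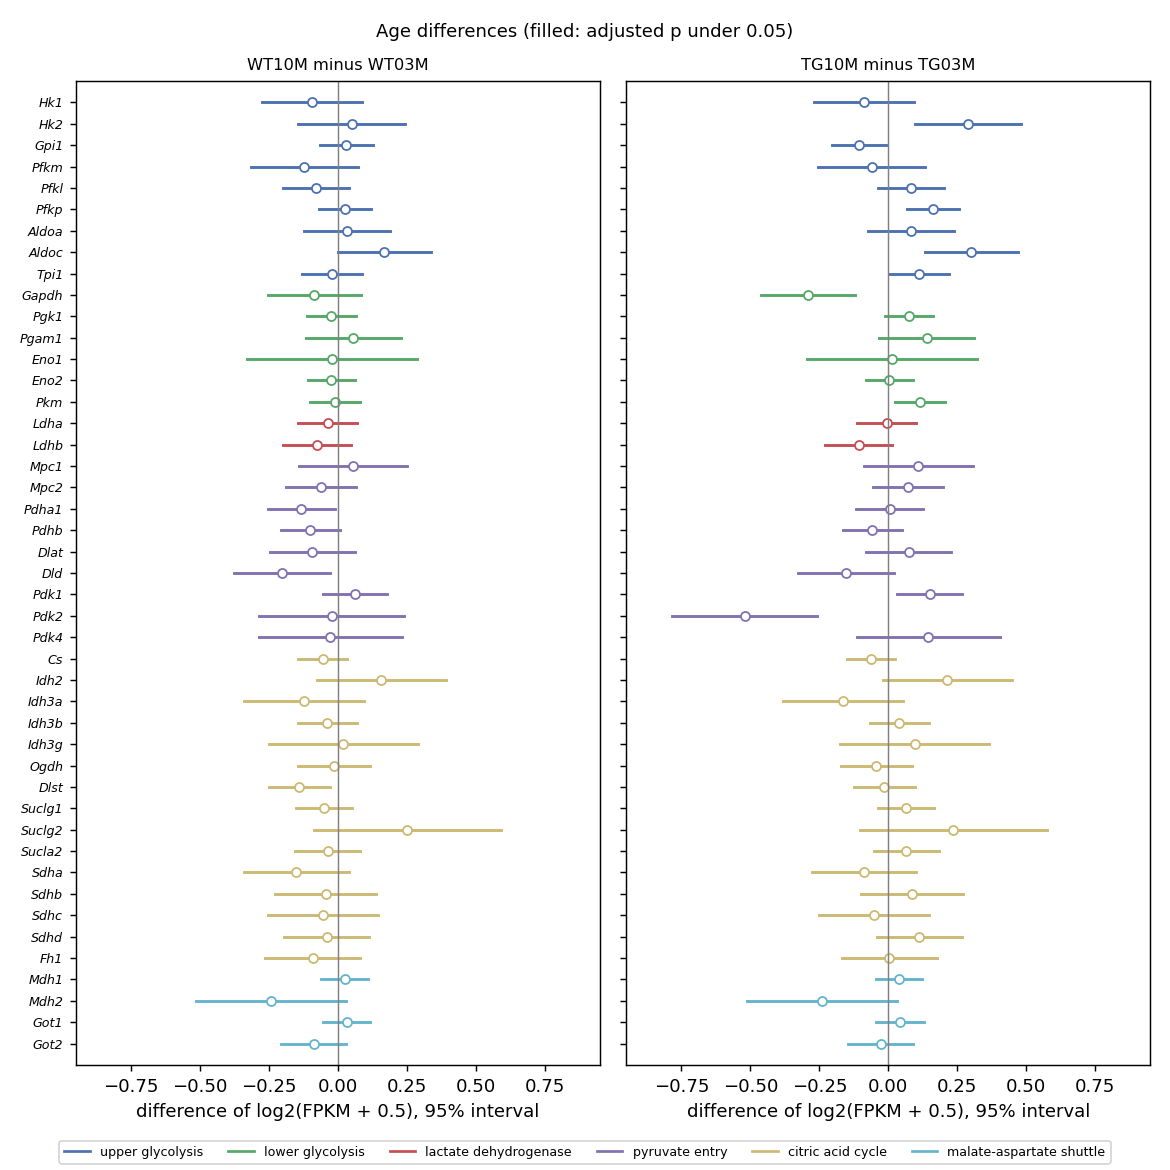
Difference between ages in log2(FPKM + 0.5) (x axis) for each of the 45 genes in wild-type (left) and transgenic cortex (right), with its 95% interval, coloured by role. All points are open, as 0 of the 45 genes had an adjusted p under 0.05, and Pdk2 in transgenic cortex lies lowest at -0.52.

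Whether the genotype difference changed with age was tested as an interaction (10 months minus 3 months), and 0 of the 45 genes were called, with 5 genes or 0.0364% of the table. At an unadjusted p under 0.05 in limma there were 3 of the 45, beside 5.04% of all genes. These were Pdk2, at -0.50 (SE 0.18, adjusted p = 0.934), Pfkp, at 0.13 (SE 0.06, adjusted p = 0.962), and Pkm, at 0.13 (SE 0.06, adjusted p = 0.962), and the next was Gpi1, at -0.14 (SE 0.07, adjusted p = 0.962). Without the 3 libraries 0 of the 45 and 0.0292% of the table were called. Of the 45 values 37 were above 0, with a median of 0.06 (near 0 over all genes). With a term for low Hsp90aa1, Pdk2 alone was called, at -0.74 with an adjusted p of 0.0381 in limma. As at 3 months, this value rests partly on the 3 libraries that stand apart.

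The 3 libraries that stand apart carried a pattern of their own through both pathways. Of the 45 genes, 9 were higher in all 3 than in each of the other 17 libraries (Aldoa, Aldoc, Pgam1, Mpc1, Pdk1, Idh3g, Sdhb, Sdhd and Mdh1) and 10 were lower (Hk1, Pfkm, Gapdh, Ldhb, Dld, Pdk2, Idh3a, Ogdh, Sdha and Mdh2), where 9.19% of all genes were higher without overlap and 14% lower, 23.2% in all. The 3 were picked from the values of all genes, so this is a description. Hk1 had 79.5 to 84.4 FPKM in the 3 and 94.1 to 117 in the other 17. Mpc1, a subunit of the pyruvate carrier, had 198 to 221 FPKM in the 3, where the others had 142 to 172.

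Some subunits of the same enzyme moved apart in these libraries. The pairs were picked after the values were seen. Measured as log2 deviation from the median of the other libraries of the same group, Idh3a, the catalytic subunit of isocitrate dehydrogenase, was at -0.49, -0.45 and -0.51 in WT10M replicate 5, TG10M replicate 1 and TG10M replicate 5, while its partner Idh3g was at 0.65, 0.26 and 0.26. Idh3b, another subunit of isocitrate dehydrogenase, was at 0.20, -0.07 and -0.12. Likewise the deviation of Sdha was -0.45, -0.41 and -0.38 and that of its iron-sulphur partner Sdhb was 0.41, 0.22 and 0.29. Other partners did not move apart. Mpc1 was at 0.44, 0.29 and 0.34 and Mpc2 at 0.24, 0.20 and 0.16. Pdha1 was at 0.08, -0.03 and -0.05 and Pdhb at 0.15, -0.06 and -0.08. Mdh2 was at -0.67, -0.54 and -0.62 and Pdk2 at -0.57, -0.54 and -0.59. Of the 45 genes, 2 deviated by over 0.25 upwards in all 3 libraries and 7 downwards, together 20% of them, beside 15.1% of all genes tested. Across genes the deviations fell with the length of the main transcript: Spearman's rho was -0.42, -0.29 and -0.32 over the 45 genes in the 3 libraries, in the order above, and -0.30, -0.24 and -0.25 over 13669 genes, which are not independent replicates. Summed markers of excitatory neurons were 562 to 589 FPKM in the 3 and 797 to 1040 in the others, and those of inhibitory neurons 446 to 478 and 484 to 603. Markers of all neurons summed to 2190 to 2200 FPKM in the 3, within the 2090 to 2390 of the others. The transcript mt-Co1 was at 11200 to 13000 FPKM in the 3 and 6000 to 10600 in the others. The part of these in the enzyme values was not tested.

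**Figure D5:**
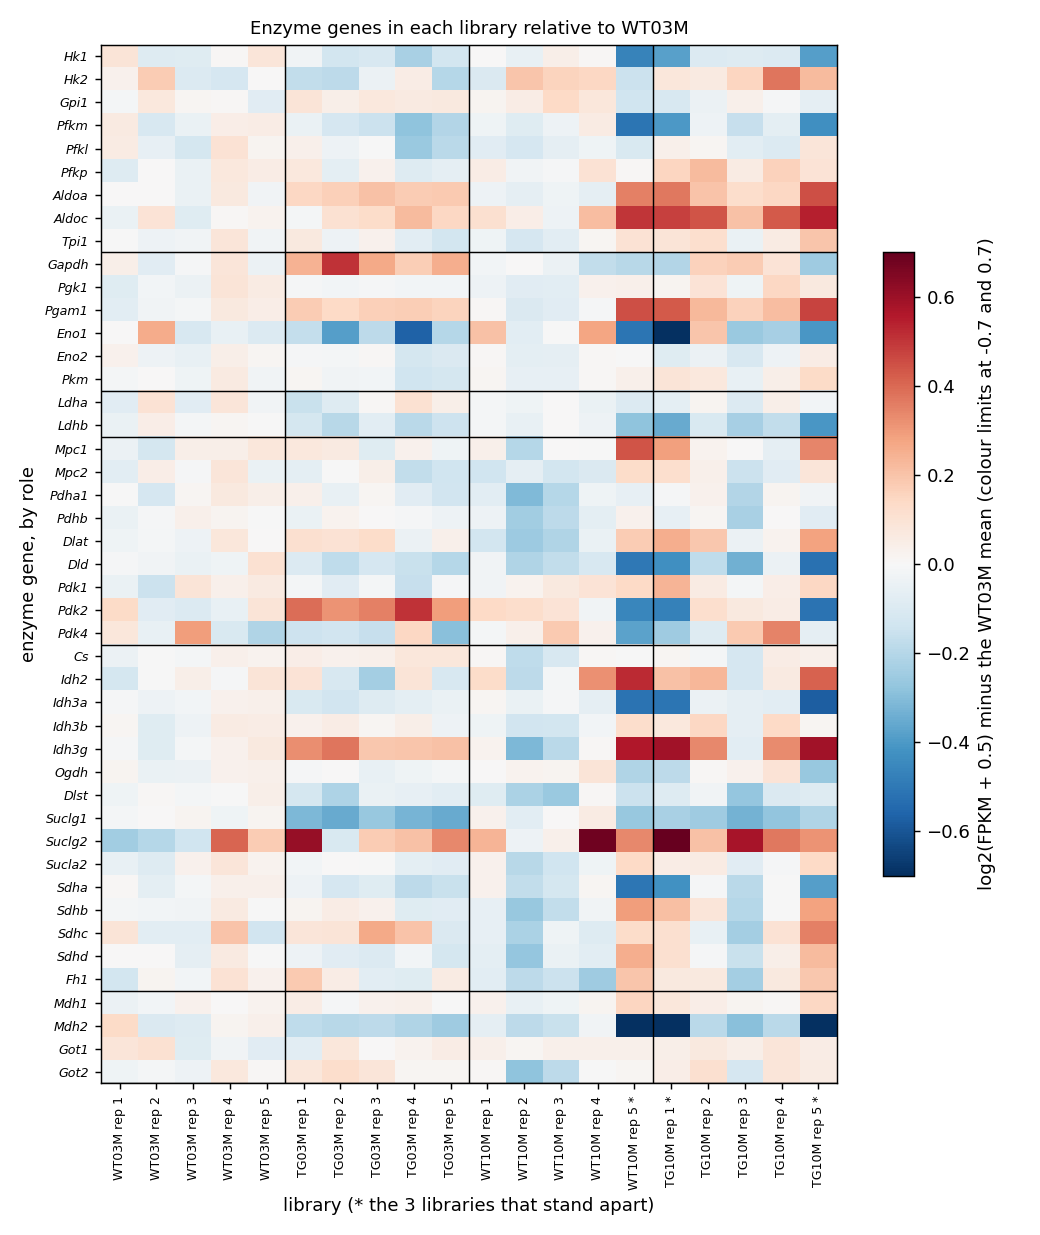
log2(FPKM + 0.5) of each of the 45 genes (rows, by role) in each library (columns, by group) minus its mean in WT03M, with colour limits at -0.7 and 0.7; stars mark the 3 libraries that stand apart. These columns share their reds and blues across genotypes, with Mdh2, Pdk2 and Idh3a low and Idh3g, Aldoa and Pgam1 high, and Suclg1 is blue in all 10 transgenic columns.

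Genes around the pathways gave 1 call in the comparisons of 2 groups and 3 over both ages. Of 84 related genes in 6 lists (other isoenzymes, transporters, further enzymes of the cycle, the pentose phosphate pathway, the glycerol phosphate shuttle and hypoxia response genes), 83 were in the table and 72 were tested. None was called between genotypes at 10 months or at 3 months, with age in wild-type cortex or in the interaction, and 14, 9, 6 and 4 of the 72 had an unadjusted p under 0.05 in limma, beside 14.1%, 10.6%, 6.72% and 5.04% of all genes. With age in transgenic cortex 1 of the 72 was called, beside 0.845% of all genes. This was Slc16a3, a lactate and pyruvate transporter known from glycolytic cells and astrocytes. It rose by 0.63 (SE 0.12, adjusted p = 0.0167) in limma, which was 0.57 (SE 0.13, adjusted p = 0.0588) without the 3 libraries. G6pdx, the entry enzyme of the pentose phosphate pathway, had differences of 0.28 (SE 0.08, adjusted p = 0.18) at 3 months and 0.30 (SE 0.08, adjusted p = 0.105) at 10 months. It was called at both ages without the 3 libraries, with adjusted p of 0.00556 and 0.00411. Among hypoxia response genes the transcription factor Epas1 had 0.53 (SE 0.14, adjusted p = 0.145) at 3 months and 0.42 (SE 0.14, adjusted p = 0.184) at 10 months, and without the 3 libraries it was called at 3 months, with an adjusted p of 0.0379. Over both ages together 3 of the 72 were called in limma, beside 2.7% of all genes. G6pdx (adjusted p = 0.0117) and Epas1 (adjusted p = 0.018) rose and Ankrd37, a hypoxia-induced ankyrin repeat gene, fell (adjusted p = 0.0468). In that comparison 14 had an unadjusted p under 0.05 in limma, beside 20.2% of all genes. When the 3 libraries were left out, calls of genes that were higher included Adpgk, an ADP-dependent glucokinase, and Acly, ATP citrate lyase. In the other lists the smallest p at 10 months was that of Adpgk, at 0.34 (SE 0.09, adjusted p = 0.0938), Glud1, glutamate dehydrogenase, at 0.20 (SE 0.07, adjusted p = 0.238), and Gpd2, the mitochondrial glycerol phosphate dehydrogenase, at -0.09 (SE 0.05, adjusted p = 0.428). The next in the 6 lists, by the order above, were at 0.31 (Ldhd), 0.38 (Slc2a1, the glucose transporter of endothelium and astrocytes), 0.15 (Aco1), 0.27 (Pgls), 0.03 (Gpd1l) and -0.31 (Ankrd37) on the log2 scale, and none was called.

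In 11 of the 45 genes a transcript other than the main one held over 20% of the gene's FPKM in at least 1 library. Hk1 had 39.7 to 49.02% of its FPKM in its second transcript, Fh1 (fumarase) 39.05 to 53.4%, Pfkp 36.7 to 45.2%, Sucla2 21.8 to 34.3%, Sdhc 18.5 to 38.1%, Aldoc 20.02 to 23.2%, Ogdh 18.5 to 26.3%, Gpi1 12.03 to 24.1% and Mdh1 13.9 to 24.7%. In Suclg2 the transcript ENSMUST00000204567 ranged up to 50.7% and was near 0 in other libraries, the widest swing of the set. In Eno1 the transcript ENSMUST00000133839 reached 29.9% in 1 library of TG03M, with a mean of 2.76% over the 20. FPKM of overlapping transcripts rests on an estimated split of shared reads, and its part in these ranges was not tested.

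Values of some genes are uncertain by their sequence. In 12 of the 45 the main transcript has a copy elsewhere in GENCODE M21 with at least 95% identity over at least 200 bases, in each case with pseudogenes among the copies. Gapdh has 78 such copies, Pgk1 and Ldha 4 each, Eno1 3, and Pgam1, Ldhb and Suclg2 1 each. Suclg1, Aldoa, Aldoc, Pdk2, Idh3g and Mdh2 have 0. Exons of 13 of the 45 overlap another gene, among them Aldoa and Pkm, and whether the authors counted reads by strand is not given in the sources used here.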

How the data were processed

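Total RNA of frozen cortex, with an RNA integrity number above 7 per the labels, was sequenced in 20 libraries. The authors deposited FPKM per transcript, per the file headers. The submitters' processing notes name CASAVA, TopHat2, Cuffdiff, DESeq2 and the build GRCm38 (mm10); the sources used here do not give their roles, order or versions. FPKM of the 50660 transcripts were summed per gene. Genes with a mean of at least 0.5 FPKM (13722) were tested on log2(FPKM + 0.5) with limma 3.58.1 (R 4.3.3; lmFit, contrasts, eBayes with a trend), with 1 mean per group, 16 residual degrees of freedom, two-sided, and Benjamini-Hochberg adjustment; a gene was called at an adjusted p under 0.05. Fold changes on this scale understate changes of low genes. The fit was tested on simulated data. Depth came from low FPKM of genes with 1 transcript over 4000 bases: 77.5 to 89.7% of them lay within 0.1 of a whole multiple of a step set from the most frequent value, against 20% for evenly spread values. At most 0.00456% of values were identical between replicates. Positions and copies came from GENCODE M21 (98.9% of transcripts matched; BLAST+ 2.17.0). The members, lists, split of libraries and alternatives were chosen with earlier results of these data known. Full values were given for called genes or the 4 with the smallest p in each comparison, for the largest difference at 10 months in each role group, for transcripts over 20%, and for the 2 genes with the smallest p of each related list; Pgam1, Got1, Hk2 and the genes of the 3 libraries were named after their values were seen.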

Additional observations from a re-analysis of the deposited data

Results flagged for a closer look

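In 14 of 180 sets of 5 libraries (45 genes in 4 groups), 1 library lay far from the other 4 of its group, with a gap of more than 0.71 of the group's range. Chance gives such a gap in about 1 in 20 groups, which is 9 of 180. WT10M replicate 5 held 8 of the 14. It was high in Aldoa (1550 FPKM), Pgam1 (410) and Mpc2, a subunit of the pyruvate carrier (107), and low in Hk1 (79.5), Pfkm (115), Ldhb (300), Idh3a (63.3) and Mdh2 (65.2). The other 6 lay in 5 libraries: WT03M replicate 4 was high in Tpi1 (515 FPKM) and Sdhb (127), WT03M replicate 5 in Dld (77.2) and TG03M replicate 2 in Gapdh (306). TG10M replicate 3 was low in Pdha1 (110 FPKM) and WT10M replicate 2 in Got1 (154).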

How the results depend on the processing

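The differences of the 24 single-gene results below kept their direction in every alternative run. For the 24 results on single genes, 243 values under other settings kept their side of the threshold, 16 passed it where they had not, and 1 (Suclg1 at 3 months with the Hsp90aa1 term, -0.281, adjusted p 0.0765 in limma) lost it; with 1 library left out, 270 values kept it and 10 passed it. Called genes moved by over 1.5 times as follows, and the cause was not tested. For all genes: 22 at 3 months with no filter; 3 in the interaction at a mean of at least 1 FPKM; with only the groups compared 16 at 10 months, 221 at 3 months, 1 with age in WT and 52 in TG; without the 3 libraries 326, 473 and, with age in TG, 73; with the Hsp90aa1 term 4 at 3 months and 2319 with age in TG; over both ages 1243 without the 3 libraries. For the 45: with age in TG 1 with median centring (Pdk2), 1 with quantile normalization (Aldoc) and 16 with the Hsp90aa1 term; at 3 months 6 with only the groups compared and 7 without the 3 libraries; 4 at 10 months and 11 over both ages without the 3 libraries; 1 in the interaction with the Hsp90aa1 term, where their median was 0.103. Leaving out 1 library gave 28 to 1600 genes and 0 to 9 of the 45 at 10 months, 11 to 108 and 1 at 3 months, 1 to 9 genes with age in WT, 56 to 154 and 0 to 2 with age in TG, and 1 to 12 of the 45 over both ages. A fit with the replicate number as a block gave 5 genes with age in WT and changed no call among the 45; numbers did not pair the libraries (correlations of same-numbered libraries from -0.425 to 0.66, and 1 of 5 libraries correlating best with its own number in each comparison). Pseudocounts of 0.1 and 1 and the most abundant transcript alone moved no count by over 1.5 times. The depth of 22.6 to 30.1 M fragments is an estimate, so counting error of single values is not given.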
